A study of Mus musculus with 9 samples.

Results

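A set of 9 interferon-stimulated genes were followed across 9 mouse kidney RNA libraries: Isg15, Ifit1, Ifit3, Irf7, Oasl2, Bst2, Ifitm3, Rsad2 and Ifi27l2a. They were taken from the deposited table by gene symbol, and all 9 were found among its 54532 genes. All 9 also passed the filter on low values (FPKM, fragments per kilobase of gene, of at least 1 in at least 3 libraries) that left 12642 genes for testing. Every mouse was a male C57BL/6J aged 4 months. The hindlimb-unloaded mice treated with 4-phenylbutyric acid (PBA1 to PBA3) were injected intraperitoneally with this chemical chaperone, an agent against endoplasmic reticulum stress, at a daily dose of 100 mg per kg. The hindlimb-unloaded mice given vehicle (HU1 to HU3) and the untreated ground controls (GC1 to GC3) completed the 3 groups of 3 samples. Hindlimb unloading, in which the hind limbs are lifted off the floor, is a rodent model of disuse and microgravity. Because only unloaded mice were given an agent or vehicle, unloading and vehicle cannot be told apart in comparisons with ground controls. The labels give 6 to 8 mice a group for the study and do not tie each sample to a mouse, so p-values measure the spread between these samples.

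Type I interferons are released when cells sense viral or misplaced nucleic acid. They bind the Ifnar1 and Ifnar2 receptor, and signalling through the kinases Jak1 and Tyk2 then leads to the binding of interferon-stimulated response elements in the promoters of target genes. Many of these genes are also transcribed at a low level without infection, in kidney as in other tissues.

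The response element is visible in the members' promoters. The letters GAAA, any 2 bases and GAAA again, searched on both strands in the window from 250 bases before to 50 bases after the start of each gene (RefSeq, GRCm38.p6), were found in 6 of the 8 members with a sequence (75%). Of all 32851 promoters in the same table, 1131 (3.44%) held them. The longer form with CT after the second GAAA, which contains the shorter, was found in 4 of the 8 members (50%) and in 89 of all promoters (0.271%). No match to the shorter form lay in the windows of Irf7 and Oasl2, and the table held no sequence for Ifi27l2a. The stretches around the matches are shown because they are the shared feature that the choice of genes by symbol did not use. Capitals mark each match, which reads TTTC, 2 bases and TTTC where it lies on the other strand.
Isg15 (chr4:156200850-156200921, minus strand): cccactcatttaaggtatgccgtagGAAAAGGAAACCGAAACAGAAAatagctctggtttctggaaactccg
Ifit1 (chr19:34640760-34640838, plus strand): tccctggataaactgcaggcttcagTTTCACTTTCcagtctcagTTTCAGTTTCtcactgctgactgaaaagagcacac
Ifit3 (chr19:34583348-34583441, plus strand): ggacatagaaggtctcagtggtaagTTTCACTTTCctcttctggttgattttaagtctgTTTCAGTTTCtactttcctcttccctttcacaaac
Bst2 (chr8:71537562-71537627, minus strand): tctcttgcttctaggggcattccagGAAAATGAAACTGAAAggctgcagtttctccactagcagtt
Ifitm3 (chr7:141010716-141010742, minus strand): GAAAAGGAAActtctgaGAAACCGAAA
Rsad2 (chr12:26456538-26456597, minus strand): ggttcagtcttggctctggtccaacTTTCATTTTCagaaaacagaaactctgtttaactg
Positions are counted from each gene's RefSeq start, which can differ from the gene coordinates given below. The matches began at -78, -72 and -66 in Isg15, where they overlap in 1 run, and at -130 and -124 in Bst2, which also overlap. Ifit1 had matches at -104 and -85, Ifit3 at -156 and -122, and Rsad2 at -120. Those of Ifitm3 lay after the start, at 3 and 20, inside its first exon. Among 41 other interferon-stimulated effectors with a sequence, 21 (51.2%) held the shorter form. The share was 78.6% (11 of 14) for GTPases and chemokines induced by interferon-gamma and 10% (1 of 10) for receptors and JAK-STAT genes. It was 55% (11 of 20) for the interferon genes themselves and 29.4% (5 of 17) for the MHC class I pathway. For nucleic acid sensors and adaptors it was 23.1% (3 of 13), and for negative regulators 18.2% (2 of 11). A match is a run of letters and not a measured binding site.

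The libraries stood apart from each other in depth and composition. Reads recovered from the FPKM totalled 7595631 to 15141784 per library. The deposited FPKM were not scaled to these totals: 3 reads of Isg15 would be 0.159 FPKM in PBA1 (14617394 reads) and 1.27 FPKM in HU2 (7595631 reads). How they were scaled is not described in the sources used here, and differences between groups depend on it. The median log2 difference of all genes in HU against GC was -0.03 as deposited. It was 0.13 scaled to reads outside the mitochondrial genome and -0.78 scaled to total reads. The mitochondrial genome took 13.7%, 15.2% and 67.1% of reads in the PBA libraries, 63.7% to 79.3% in the HU libraries and 14.8% to 49.7% in the GC libraries, with PBA3 the library at 67.1%. Of the genes with at least 20 reads expected from the other libraries, 6.78% (741 of 10936) were at 0 in HU1 and 2.94% (324 of 11003) in PBA3, against 0.413% to 1.14% in the other 7. The summed FPKM of 10 proximal tubule markers was 1694, 1806 and 457 in PBA1 to PBA3, 143 to 331 in HU libraries and 1559 to 2010 in GC libraries, so kidney markers were present throughout but at unequal levels. Plasmacytoid dendritic cell markers, of the cells known for high interferon output, summed to 0.142 to 1.13 FPKM in PBA, 0.775 to 4.37 in HU and 0.253 to 0.685 in GC libraries, and 0 of 5 passed the filter. In bulk tissue, fewer cells of a type and less RNA per cell cannot be told apart.

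Per gene length, the members spanned a wide range of levels. Ifitm3 stood at the 97.1st percentile of mean FPKM among the genes tested, Ifi27l2a at the 94.4th and Bst2 at the 86.9th, while Rsad2 stood at the 49.9th and Oasl2 at the 31.1st. In ground controls the order of mean FPKM was Ifitm3, Ifi27l2a, Bst2, Ifit3, Irf7, Isg15, Rsad2, Ifit1 and Oasl2. Neighbours in that order overlapped in their library values except at 2 steps, from Bst2 to Ifit3 and from Ifit1 to Oasl2. In HU kidneys the values of Ifitm3 lay above those of Ifi27l2a and the values of Ifit3 above those of Ifit1, whereas Bst2 and Ifit3 overlapped. In PBA kidneys the step from Bst2 to Ifit3 was the only one without overlap. The level of Irf7 is per 3776 bases, which is its whole span, introns included.

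**Figure D1:**
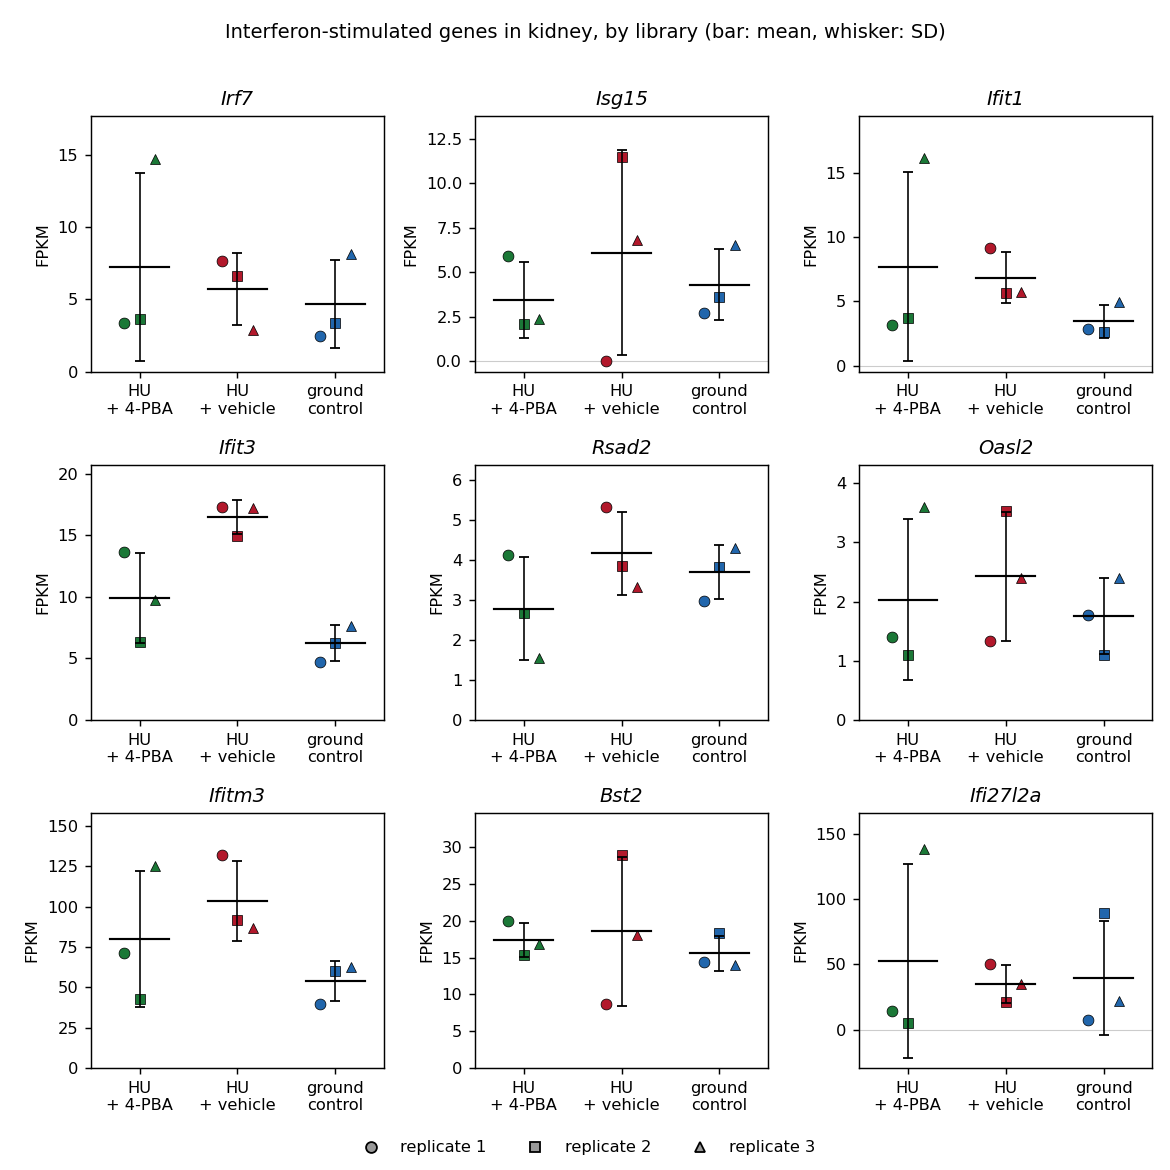
FPKM of the 9 interferon-stimulated genes (y axis, 1 panel per gene) in each library of the HU + 4-PBA, HU + vehicle and ground control groups; bars are means, whiskers SD (n = 3), and marker shapes give the replicate number. Ifit3 lies between 14.9 and 17.3 FPKM in the HU libraries, above all GC libraries, while PBA3 reaches 138 FPKM for Ifi27l2a.

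Of the 9 genes, 1 passed the test in kidneys of HU mice against GC mice, and it was higher: Ifit3. Over all 12642 genes, 10.2% were called in this comparison, 5.32% higher and 4.9% lower, so 1 of 9 is near the background. Groups did not overlap for 3 members (Ifit1, Ifit3 and Ifitm3), all higher in HU kidneys, beside 18.3% of all genes with HU above GC, 19.4% with HU below and 37.7% in either direction. With 4-PBA against vehicle, 0 of 9 members were called by limma (of all genes 2.69% were called, 1.16% higher and 1.53% lower). By limma-voom 0 were called as well, and by each tool 1 of 9 had an unadjusted p under 0.05. Groups did not overlap for 1 of 9, Ifit3, lower in PBA kidneys, beside 20.3% of all genes (10.1% higher and 10.2% lower). In PBA against GC kidneys, limma and limma-voom called 0 of 9, and 0 at an unadjusted p under 0.05, with 0% of all genes called. Groups did not overlap for 0 of 9, beside 8% of all genes (4.37% higher and 3.63% lower). The median difference of the 9 members on the log2(FPKM + 1) scale was 0.29 in HU against GC, -0.21 in PBA against HU and 0.15 in PBA against GC. The medians of all genes were -0.03, 0.02 and -0.00. In PBA against GC the members ran from -0.36 for Rsad2 to 0.68 for Ifit1. With scaling to total reads the members' medians were -0.56, 0.49 and 0.08 and those of all genes -0.78, 0.71 and -0.06 in the same order of comparisons, and there Ifit1 and Ifitm3 lay below 0 in HU against GC (-0.028 and -0.13), though 0.75 and 0.65 above the median of all genes. PBA against HU and HU against GC share the HU libraries, and the comparisons with ground controls share the GC libraries.

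Ifit3 (ENSMUSG00000074896; mm10 chromosome 19, 34583531 to 34588731, plus strand) encodes a tetratricopeptide protein that works with Ifit1 in restraining viral RNA. It had 13.6, 6.35 and 9.74 FPKM in PBA1 to PBA3, 17.3, 14.9 and 17.2 FPKM in HU1 to HU3, and 4.74, 6.27 and 7.64 FPKM in GC1 to GC3. Every HU library was above every other library. HU kidneys averaged 16.5 ± 1.35 FPKM and GC kidneys 6.22 ± 1.45 FPKM (n = 3 each, SD). The log2 difference was 1.29 ± 0.30 (SE; 95% interval 0.63 to 1.96; limma adjusted p = 0.0287). These values rest on 180, 81 and 204 reads in HU1 to HU3 and on 161, 262 and 146 reads in GC1 to GC3. PBA kidneys averaged 9.91 ± 3.65 FPKM, a log2 difference from HU kidneys of -0.73 ± 0.30 (SE; 95% interval -1.40 to -0.07), which did not pass (limma adjusted p = 0.208; unadjusted p = 0.0342). All PBA libraries were below all HU libraries, as were 10.2% of all genes tested in that direction. Against ground controls the PBA difference was 0.56 (adjusted p = 1) and the groups overlapped.

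The call of Ifit3 held in some settings and not in others. The limma adjusted p was 0.0381 and 0.028 with pseudocounts of 0.1 and 4, and 0.0237 with mean FPKM of at least 5. It was 0.0243 scaled to reads outside the mitochondrial genome, 0.00563 with library weights and 0.0164 with only the 6 libraries compared. Without PBA3 and GC3 together it was 0.0362, and by limma-voom the adjusted p was 0.0291. With no filter the limma adjusted p was 0.0729. The limma adjusted p was 0.0574 without HU1, 0.0694 without HU3, 0.126 without GC1, 0.0834 without GC2 and 0.0731 without GC3, and it stayed under 0.05 without HU2 (0.0471) or any PBA library (0.0192 to 0.0348). With the mitochondrial share of reads as a covariate the difference was 1.14 (adjusted p = 0.164). That share did not overlap between HU (63.7% to 79.3%) and GC libraries (14.8% to 49.7%). The covariate therefore cannot separate the share from the group in this comparison. With scaling to total reads the difference of Ifit3 was 0.33 (adjusted p = 0.639), where the median of all genes moved to -0.78. Of the 50-base words of its annotated transcripts, 51.2% also occur in those of Ifit3b, its neighbour and near copy, so reads may be split between both genes. Ifit3b had 2.88, 1.26 and 4.81 FPKM in PBA1 to PBA3, 3.01, 3.69 and 3.10 FPKM in HU1 to HU3, and 1.23, 1.27 and 1.10 FPKM in GC1 to GC3. HU libraries were thus above GC libraries for this copy too, with a log2 difference of 0.95 that did not pass (limma adjusted p = 0.0923).

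Ifit1 (chromosome 19, 34640871 to 34650009, plus strand), whose protein binds viral RNA that lacks the host's cap methylation, had 3.17, 3.73 and 16.2 FPKM in PBA1 to PBA3. It had 9.14, 5.69 and 5.72 FPKM in HU1 to HU3, and 2.84, 2.61 and 4.92 FPKM in GC1 to GC3. HU libraries were above GC libraries, but PBA3 exceeded all of them while PBA1 and PBA2 lay within the GC range. The log2 difference was 0.82 ± 0.50 in HU against GC (SE; 95% interval -0.31 to 1.95; limma adjusted p = 0.298) and -0.14 in PBA against HU (adjusted p = 0.898). The neighbouring Ifit2, of the same family, had 2.94, 2.18 and 8.49 FPKM in PBA1 to PBA3, 9.68, 3.44 and 5.03 FPKM in HU1 to HU3, and 1.73, 1.89 and 2.95 FPKM in GC1 to GC3. Like Ifit1, it had HU above GC in every library and a single high PBA library, and its difference of 1.07 in HU against GC did not pass (limma adjusted p = 0.151).

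Ifitm3 (chromosome 7, 141009586 to 141010770, minus strand) encodes a membrane protein that blocks virus entry through endosomes. It had 71.4, 42.9 and 125 FPKM in PBA1 to PBA3, 132, 91.9 and 86.5 FPKM in HU1 to HU3, and 39.8, 60.0 and 62.6 FPKM in GC1 to GC3. HU libraries did not overlap GC libraries, and the PBA libraries spread over both. The log2 difference was 0.92 ± 0.40 in HU against GC (SE; 95% interval 0.02 to 1.82; limma adjusted p = 0.159; unadjusted p = 0.0456) and -0.48 ± 0.40 in PBA against HU (adjusted p = 0.542). Of its 50-base words, 10% are shared with other genes, among them Ifitm2 and Gm7676.

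Ifitm1, next to Ifitm3 on chromosome 7 and of the same family, changed in both comparisons. It had 7.47, 3.43 and 10.3 FPKM in PBA1 to PBA3, 30.9, 26.4 and 27.0 FPKM in HU1 to HU3, and 3.43, 6.37 and 3.84 FPKM in GC1 to GC3. HU kidneys averaged 28.1 ± 2.46 FPKM against 4.55 ± 1.59 FPKM in GC kidneys (n = 3 each, SD; log2 difference 2.42, limma adjusted p = 0.00872). With 4-PBA it fell to 7.05 ± 3.44 FPKM, against 28.1 FPKM in HU kidneys given vehicle (log2 difference -1.95, limma adjusted p = 0.0284). The rise did not pass without GC1 (adjusted p = 0.0565), and the fall passed only without PBA3 among the 9 libraries left out in turn (otherwise adjusted p = 0.0504 to 0.0885). Scaled to total reads, neither the rise (1.45, adjusted p = 0.0667) nor the fall (-1.05, adjusted p = 0.186) passed, nor did they with the mitochondrial covariate (adjusted p = 0.0794 for the rise and 0.108 for the fall), and the fall did not pass with no filter (0.0889) or with only the 6 libraries compared (0.117). Ifitm2 had 24.6 to 52.2 FPKM in PBA, 45.0 to 73.4 FPKM in HU and 25.0 to 39.5 FPKM in GC libraries, a difference of 0.93 in HU against GC that did not pass (limma adjusted p = 0.106).

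**Figure D2:**
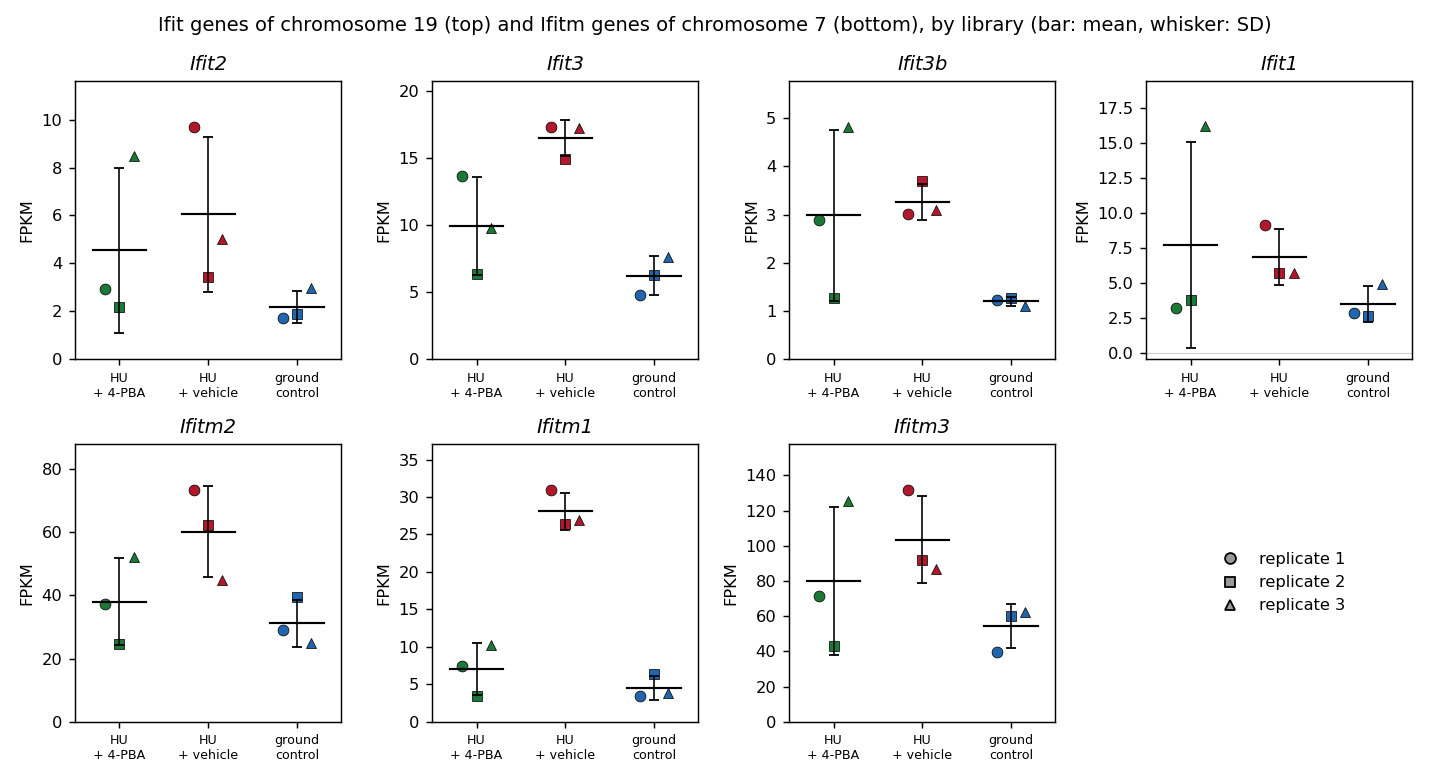
FPKM by library (y axis) of Ifit genes of chromosome 19 (top row) and Ifitm genes of chromosome 7 (bottom row) in the HU + 4-PBA, HU + vehicle and ground control groups; bars are means and whiskers SD (n = 3). Ifit1bl1 and Ifit1bl2, which lie between Ifit3 and Ifit1, did not pass the filter and are not shown. In every panel of deposited FPKM the 3 HU libraries lie above the 3 GC libraries, as they do for 18.3% of all genes tested. In Ifitm1 the HU libraries, at 26.4 to 30.9 FPKM, also lie above all PBA libraries.

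Markers of other cells differed between the groups to unequal degrees. The summed FPKM of 12 endothelial markers was 112 to 209 in PBA, 246 to 334 in HU and 99.9 to 145 in GC libraries. Eng and Plvap hold most of the sum in HU libraries and were the markers called higher, and over the list 8 differences of HU against GC were above 0 and 4 below, with a median of 0.25 and Cldn5 called lower (-2.31). The sum of 11 fibroblast and pericyte markers was 105 to 654 in PBA, 353 to 541 in HU and 102 to 215 in GC libraries, highest in PBA3. Over this list 8 differences of HU against GC were above 0 and 3 below, with a median of 2.04. Acta2 was among the lower ones, at 11.9 to 18.8 FPKM in HU and 21.9 to 54.1 FPKM in GC libraries. All 12 and all 11 passed the filter, and 1 fibroblast and pericyte marker was called higher in HU against GC kidneys. Both cell types express Ifitm genes. Among immune cells, which express many interferon-stimulated genes, 17 macrophage and dendritic cell markers summed to 75.3 to 143 FPKM in PBA, 42.2 to 87.6 FPKM in HU and 59.6 to 98.3 FPKM in GC libraries, and 0 of the 12 tested were called by limma in HU against GC, with 6 above and 6 below 0 and a median of -0.02. The sum of 17 lymphocyte markers was 8.04 to 21.8 FPKM in PBA, 11.2 to 22 FPKM in HU and 4.56 to 6.03 FPKM in GC libraries. Of 5 tested, 1 was called higher in HU against GC, with 3 above and 2 below 0 and a median of 0.05. Of the 17, 11, 6 and 6 were at 0 in HU1 to HU3 and 2, 1 and 9 in GC1 to GC3. Trbc2 was at 0 in every HU library. PBA3 was the PBA library with the highest sum for each of these 4 lists. Among liver cell markers, Alb had 42.6 FPKM in HU1, 9.60 and 4.34 FPKM in HU2 and HU3, and 1.03 to 1.62 FPKM in GC libraries. Ttr and Serpina1a were instead lower in every HU library than in every GC library. The part of these cells in the results was not tested.

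Isg15, Irf7, Bst2, Rsad2, Oasl2 and Ifi27l2a were not called in any comparison, and their groups overlapped in each. Isg15 (chromosome 4, 156199424 to 156200818, minus strand), a ubiquitin-like protein attached to other proteins, had 5.88, 2.08 and 2.33 FPKM in PBA1 to PBA3. It was listed at 0 in HU1 and had 11.5 and 6.82 FPKM in HU2 and HU3, against 2.72, 3.59 and 6.52 FPKM in GC1 to GC3. HU1 held 0 reads of Isg15, where 3 reads would be 0.665 FPKM, and the other 2 HU libraries were the highest of all 9. The log2 difference was -0.13 ± 0.81 in HU against GC (SE; 95% interval -1.94 to 1.68; limma adjusted p = 0.932) and turned positive without HU1 (0.97) or without GC3 (0.16). PBA against HU gave -0.16 (adjusted p = 0.934), with 11 to 111 reads behind each PBA value.

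Irf7 (chromosome 7, 141262706 to 141266481, minus strand), the transcription factor that amplifies interferon production, had 3.36, 3.64 and 14.7 FPKM in PBA1 to PBA3. It had 7.63, 6.64 and 2.89 FPKM in HU1 to HU3, and 2.48, 3.37 and 8.15 FPKM in GC1 to GC3. Each group held both low and high libraries, and PBA3 was the highest. The log2 difference was 0.29 ± 0.56 in HU against GC (SE; 95% interval -0.97 to 1.56; limma adjusted p = 0.761) and 0.10 in PBA against HU (adjusted p = 0.937), or -0.50 without PBA3. Irf7 overlaps Phrf1 on the other strand, and the sources used here do not say whether reads were counted by strand, so reads of both may be mixed.

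Bst2 (chromosome 8, 71534255 to 71537456, minus strand), the tetherin that holds budding virus at the cell surface, had 19.9, 15.4 and 16.9 FPKM in PBA1 to PBA3. It had 8.72, 28.8 and 18.1 FPKM in HU1 to HU3, and 14.5, 18.3 and 14.0 FPKM in GC1 to GC3. The HU libraries included both the lowest and the highest value of all 9. The log2 difference was 0.11 ± 0.38 in HU against GC (SE; 95% interval -0.74 to 0.95; limma adjusted p = 0.881) and 0.05 ± 0.38 in PBA against HU (SE; 95% interval -0.80 to 0.89).

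Rsad2 (chromosome 12, 26442746 to 26456452, minus strand) encodes viperin, an enzyme that makes a chain-terminating nucleotide. It had 4.13, 2.69 and 1.55 FPKM in PBA1 to PBA3, 5.33, 3.85 and 3.33 FPKM in HU1 to HU3, and 2.99, 3.82 and 4.32 FPKM in GC1 to GC3. Oasl2 (chromosome 5, 114896936 to 114912234, plus strand), a relative of the oligoadenylate synthetases, had 1.39, 1.10 and 3.60 FPKM in PBA1 to PBA3, 1.34, 3.53 and 2.41 FPKM in HU1 to HU3, and 1.78, 1.10 and 2.39 FPKM in GC1 to GC3. Rsad2 was lowest in PBA3, where Oasl2 was highest. The log2 difference in HU against GC was 0.13 ± 0.30 for Rsad2 (95% interval -0.56 to 0.81) and 0.29 ± 0.38 for Oasl2 (95% interval -0.56 to 1.13; SE for both), with limma adjusted p = 0.814 and 0.646. In PBA against HU it was -0.49 for Rsad2 (adjusted p = 0.401) and -0.21 for Oasl2 (adjusted p = 0.790).

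Ifi27l2a (chromosome 12, 103442167 to 103443680, minus strand), a small hydrophobic protein induced by interferon, had the widest range of the 9 within the PBA and GC groups. It had 14.4, 5.37 and 138 FPKM in PBA1 to PBA3, 49.9, 20.8 and 34.7 FPKM in HU1 to HU3, and 7.44, 89.0 and 22.1 FPKM in GC1 to GC3. Its highest value was 25.7 times its lowest, and PBA3 and GC2 stood above every HU library. The log2 difference in HU against GC was 0.39 ± 1.11 (SE; 95% interval -2.09 to 2.87; limma adjusted p = 0.845), an interval that spans large changes in both directions. In PBA against HU it was -0.51 (adjusted p = 0.831).

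**Figure D3:**
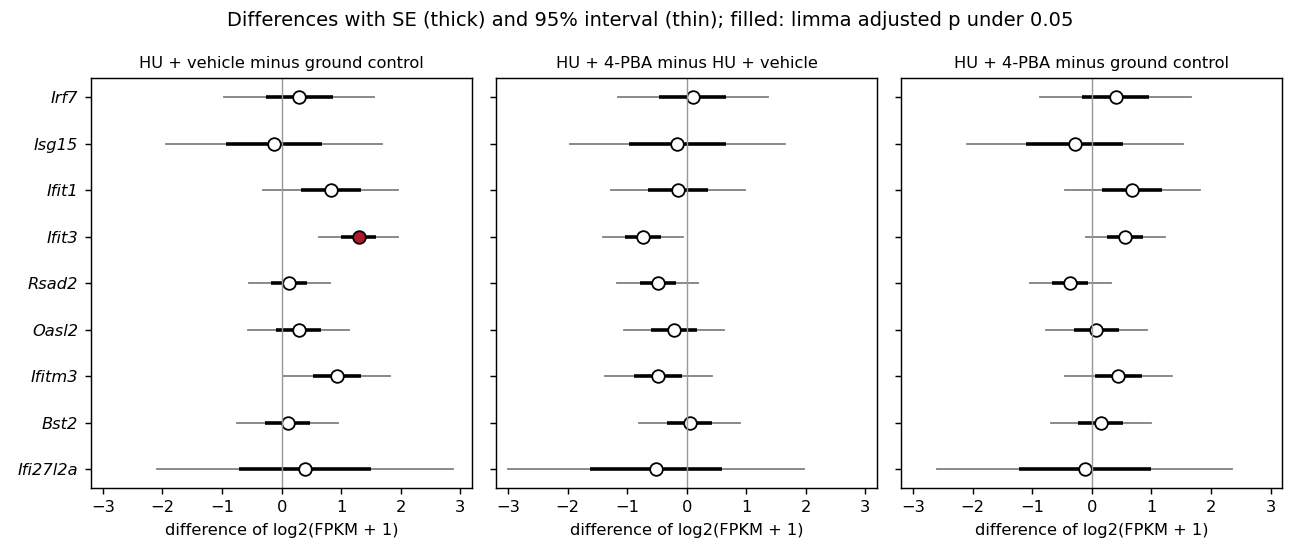
Differences of log2(FPKM + 1) (x axis) for the 9 genes in HU + vehicle minus ground control, HU + 4-PBA minus HU + vehicle and HU + 4-PBA minus ground control; thick lines are SE and thin lines 95% intervals from limma. The filled point is Ifit3 at 1.29 in the first panel, the 1 value of 27 with an adjusted p under 0.05.

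The members did not move as a block across all libraries, though all 9 lay below their own means in PBA2 and GC1. PBA3 was the highest library for 4 of the 9 (Ifit1, Irf7, Oasl2 and Ifi27l2a), beside 14.5% of all genes tested, and the lowest for Rsad2. HU1 was the highest for Ifit3, Ifitm3 and Rsad2 and the lowest for Isg15 and Bst2, which were both highest in HU2. Of all genes tested, 19.6% were highest and 25.3% lowest in HU1, 15.9% were highest in HU2 and 20.2% were lowest in PBA3. The median deviation of the 9 genes from their own means on the log2(FPKM + 1) scale was -0.04, -0.49 and 0.64 in PBA1 to PBA3, 0.52, 0.33 and 0.21 in HU1 to HU3, and -0.68, -0.28 and -0.06 in GC1 to GC3. HU libraries and PBA3 were thus on the high side and the GC libraries, PBA1 and PBA2 at or below 0, the same division as in the mitochondrial share except for GC3. That share's part in the levels was not tested beyond the covariate above, which cannot separate it from the group in HU against GC.

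As a description over the 9 libraries, the 36 pairs of members had a median Pearson r of 0.27, from -0.40 to 0.86, with 14 pairs below 0. The median between members and other tested genes was -0.01. After subtracting group means the median of the pairs was 0.17. The pairs with the highest r were Isg15 with Bst2 (0.86) and Ifit1 with Irf7 (0.86), and the lowest was Oasl2 with Rsad2 (-0.40). The points share depth and composition, and the first pair shares HU1 as its low and HU2 as its high library. The 3 genes most like each of 4 members included none of the interferon lists: Tmem110, Rusc2 and Dok2 for Isg15 (r = 0.97, 0.96 and 0.95), Ppp1r9b, Lrrc47 and Marcks for Ifit3 (0.97, 0.96 and 0.96), Parp6, Narfl and Cenpt for Irf7 (0.94, 0.94 and 0.93), and Naaa, Spast and Mansc1 for Bst2 (0.97, 0.97 and 0.96). These r are the highest of 12642 genes over 9 points and are high by that selection. The absence of interferon genes among them therefore tells nothing about the pathway.

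**Figure D4:**
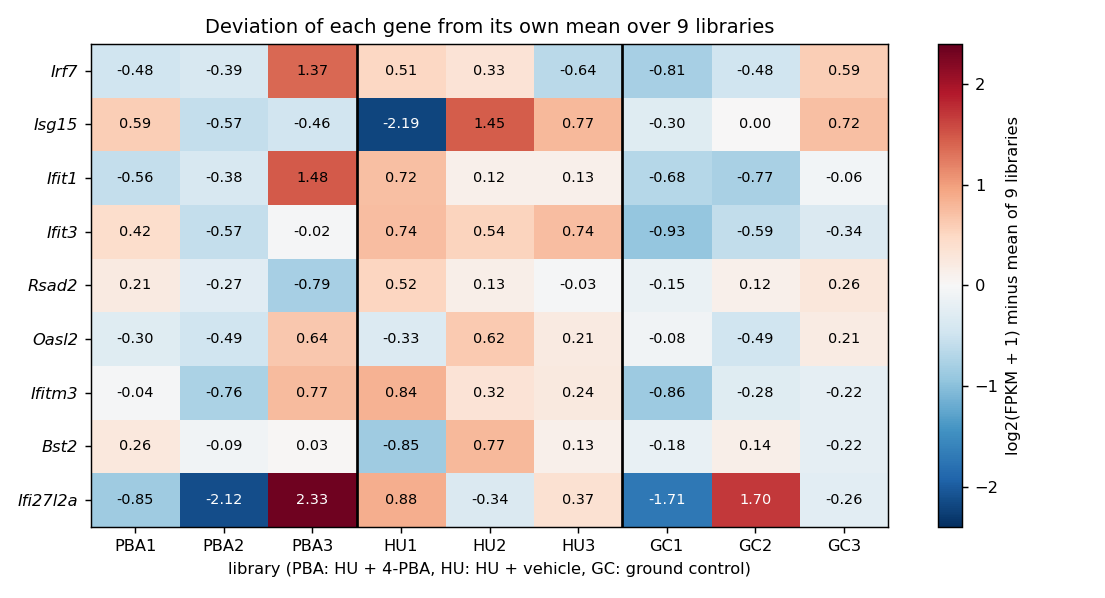
Deviation of each gene's log2(FPKM + 1) (rows) from its mean over the 9 libraries (columns: PBA, HU, GC), with the value printed in each cell. In PBA2 and GC1 every gene lies below its own mean. The other columns are of mixed sign: PBA3 runs from -0.79 for Rsad2 to 2.33 for Ifi27l2a, and HU1 from -2.19 for Isg15 to 0.88 for Ifi27l2a.

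The rest of the pathway was read from lists of 157 genes, of which 104 passed the filter. In HU against GC kidneys 5 were called higher and 3 lower, 7.69% beside 10.2% of all genes (5.32% higher and 4.9% lower). The median log2 difference of the 104 was 0.07. These shares of all genes also stand beside the counts called in HU against GC in the lists below. In PBA against HU kidneys 1 was called higher and 1 lower (1.92% beside 2.69%), with a median of 0.02. In PBA against GC kidneys 0 of 104 were called by limma or limma-voom, with 3 and 1 at an unadjusted p under 0.05. The count for HU against GC was 0 without GC1, 1 without GC2 or GC3, 3 without HU3, 4 without PBA1, 5 without HU1, HU2 or PBA2 and 17 without PBA3, and that for PBA against HU was 7 without PBA3, 2 without HU2 and 0 without any other library.

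Among the ligands, 21 interferon genes were in the table and 0 passed the filter. Their summed FPKM was 0, 0.067 and 7.88 in PBA1 to PBA3, 0, 11.5 and 2.85 in HU1 to HU3, and 0 in each GC library. All 21 were at 0 in every GC library and in PBA1 and HU1, 20 in PBA2 and in PBA3, 15 in HU2 and 19 in HU3. In HU2, 3 reads of Isg15 would already be 1.27 FPKM, so such sums can rest on few reads. Of 11 tested receptor and JAK-STAT genes, 1 was called: Ifngr2, a chain of the interferon-gamma receptor, had 2.84 ± 1.63 FPKM in PBA, 7.25 ± 0.93 FPKM in HU and 2.52 ± 0.97 FPKM in GC kidneys (n = 3 each, SD; 1.26 in HU against GC, limma adjusted p = 0.0491). The kinase Jak1 had 8.21 ± 2.29, 7.88 ± 0.88 and 6.02 ± 0.46 FPKM in PBA, HU and GC kidneys, and neither it nor the receptor chains Ifngr1 and Ifnar2 were called. Of 11 sensors and adaptors 0 were called by limma in HU against GC. The adaptor of RNA sensing Mavs had 7.73 to 11.7 FPKM in PBA, 14.1 to 19.7 FPKM in HU and 7.29 to 9.80 FPKM in GC libraries (limma adjusted p = 0.0690 in HU against GC), while the transcription factor Irf3 lay lower, at 5.25 to 8.87 FPKM in HU and 9.45 to 14.2 FPKM in GC libraries (adjusted p = 0.137).

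Of 10 negative regulators 1 was called in HU against GC, Ptpn11, a phosphatase that also serves growth factor receptors, with 6.25 ± 0.83 FPKM in PBA, 9.45 ± 0.56 FPKM in HU and 4.83 ± 0.28 FPKM in GC kidneys (n = 3 each, SD; log2 difference 0.84, limma adjusted p = 0.0377). Scaled to total reads the difference of Ptpn11 was -0.082 (adjusted p = 0.901), and with the mitochondrial covariate it did not pass (adjusted p = 0.166). Usp18, which removes Isg15 from proteins, had 0.438 to 4.20 FPKM in PBA, 0 to 3.11 FPKM in HU and 0.516 to 2.36 FPKM in GC libraries. Of 39 other effectors, 2 rose in HU against GC kidneys: Ifitm1 and Lgals3bp, a secreted glycoprotein that binds galectins. Lgals3bp had 9.97, 7.09 and 67.4 FPKM in PBA1 to PBA3, 63.0, 126 and 98.0 FPKM in HU1 to HU3, and 5.92, 9.12 and 8.66 FPKM in GC1 to GC3. Its levels were high in all HU libraries and in PBA3, with a log2 difference of 3.40 in HU against GC (limma adjusted p = 0.0209; 0.0539 to 0.0916 without HU3 or any 1 GC library; 1.69 with the mitochondrial covariate, adjusted p = 0.159) and -2.35 in PBA against HU (adjusted p = 0.105; 0.0022 without PBA3). Ly6e, with Lgals3bp and Ifitm2 among the 3 effectors of highest mean level, did not pass, with 40.4 ± 8.87, 34.9 ± 9.30 and 30.0 ± 2.22 FPKM in PBA, HU and GC kidneys.

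Of 14 tested GTPases and chemokines induced by interferon-gamma, 0 were called by limma in the 3 comparisons. The immunity-related GTPase Igtp had 2.70 to 9.83 FPKM in PBA, 1.24 to 4.93 FPKM in HU and 3.93 to 9.28 FPKM in GC libraries. Of 19 genes of MHC class I presentation, which interferons also raise, 1 was called higher and 3 lower in HU against GC kidneys. Of all genes 5.32% were called higher and 4.9% lower. Tap2 and Tap1, the subunits of 1 peptide transporter, went opposite ways: Tap2 had 5.88 ± 1.31 FPKM in HU and 2.07 ± 0.25 FPKM in GC kidneys (log2 difference 1.15, limma adjusted p = 0.0291), and Tap1 had 0.50 ± 0.39 FPKM in HU and 2.56 ± 1.08 FPKM in GC kidneys (log2 difference -1.22, adjusted p = 0.0387; SD, n = 3 each). In PBA kidneys Tap1 stood at 2.89 ± 0.27 FPKM, above HU kidneys (log2 difference 1.40, limma adjusted p = 0.0490). Tap1 lay under 1 FPKM in each HU library (0.21, 0.94 and 0.35 in HU1 to HU3). By limma-voom its differences in HU against GC (adjusted p = 0.108) and PBA against HU (adjusted p = 0.119) did not pass. By limma both passed scaled to total reads (0.0133 and 0.021). Neither passed with a pseudocount of 4 (0.0529 and 0.0638) or scaled to reads outside the mitochondrial genome (0.0528 and 0.0549). H2-Q6 fell by 2.85 and H2-Q7 by 1.27 on the log2 scale in HU against GC, and these class I genes have near copies. By limma-voom the call of H2-Q7 was lost (adjusted p = 0.0983) and that of H2-Q6 held (adjusted p = 0.0427). H2-Q6 was at 0 in HU1, and its difference was -1.91 without HU1 and -3.71 without HU2. With the mitochondrial covariate 0 of the 8 calls of the wider list in HU against GC held by limma (adjusted p = 0.0794 to 0.279). The mitochondrial share and the group cannot be told apart in that fit. Scaled to total reads, the calls of Ifngr2 (0.41, adjusted p = 0.537) and Tap2 (0.31, adjusted p = 0.554) were lost too. Leaving out 1 library at a time ended the HU against GC call of Ifngr2, Ptpn11 and Tap1 in 7 of 9 fits, of H2-Q6 in 6, of Tap2 and H2-Q7 in 5, of Lgals3bp in 4 and of Ifitm1 in 1, and the PBA against HU call of Tap1 in 7. B2m, the light chain of class I and the most abundant of the list, had 242 ± 58.9 FPKM in PBA, 301 ± 65.4 FPKM in HU and 230 ± 18.8 FPKM in GC kidneys and was not called.

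**Figure D5:**
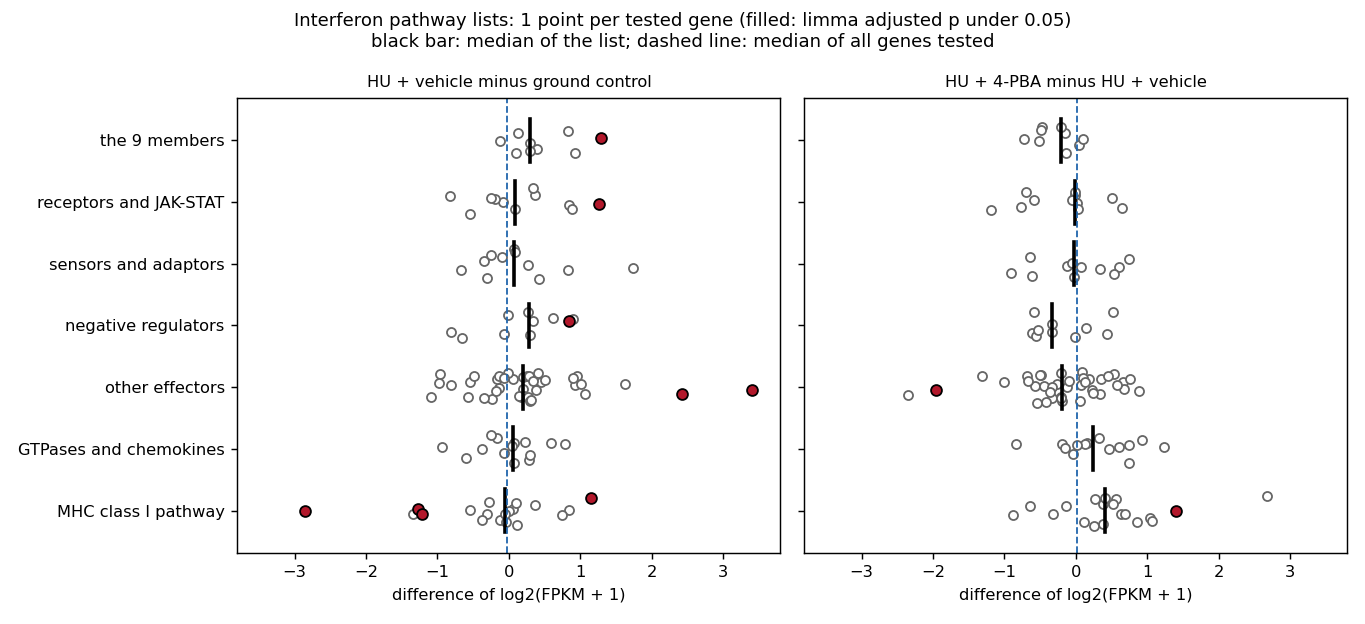
Differences of log2(FPKM + 1) (x axis) for each tested gene of 7 interferon lists (rows) in HU + vehicle minus ground control (left) and HU + 4-PBA minus HU + vehicle (right); black bars are list medians, the dashed line is the median of all genes tested and filled points passed limma at an adjusted p under 0.05. List medians lie between -0.05 and 0.29 on the left, and the filled points lie on both sides of 0.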

How the data were processed

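Kidney RNA of 9 mouse samples was read, per the labels' protocols, from paired-end libraries selected for poly(A) and marked for strand. CASAVA, cutadapt, HISAT2 and the mm10 genome are named in the submitters' processing notes, and the tool that counted reads is not given in the sources used here. FPKM per gene were deposited by the authors, with gene lengths and coordinates (98.1% as in GENCODE mouse release 21). Multiplied by gene length and a library constant, all values gave whole reads (tolerance 0.01); these served for depth, intervals and limma-voom only, and 3 reads, the floor, are 2.33e-05% to 0.000191% of a library's reads outside the mitochondrial genome. Intervals and floors cover counting error only.

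The main test was limma (version 3.58.1, with R 4.3.3; trended empirical Bayes) on log2(FPKM + 1), with all 9 samples in 1 fit of 3 groups, no covariate, and Benjamini-Hochberg adjustment over 12642 genes at 0.05. Fold changes on this scale understate those of low genes. The members and lists were chosen with earlier results of these data known, and support nothing beyond description. Genes named outside the members were, of each list, those past the threshold (at most 4) and the 3 with the highest mean FPKM, plus for 4 members the 3 genes most alike. Ifit2, Ifit3b, Usp18 and the family comparison were added after their values were seen. The labels state no pairing of same-numbered libraries, and the main test used none. The code was tested on simulated data. Sequences come from the RefSeq promoter table (GRCm38.p6). Alternatives covered pseudocounts, filters, scaling, limma-voom, a replicate block, a mitochondrial covariate, library weights and libraries left out. Figures used Python 3.11.15 and matplotlib 3.10.9.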

Additional observations from a re-analysis of the deposited data

How the results depend on the processing

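Over all alternatives the 9 members gave 558 values, of which 481 kept direction and side of the threshold, 68 changed sign, 8 lost a call and 1 gained it. All are log2 differences unless given as counts, and the cause of a change was not tested. Scaling to total reads moved the median of all genes to -0.78 in HU against GC, 0.71 in PBA against HU and -0.06 in PBA against GC, and scaling to reads outside the mitochondrial genome moved it to 0.13, -0.08 and 0.06. Correlations of same-numbered deviations were -0.196 to 0.288. These were not set against pairs of unlike numbers, so they cannot decide whether samples were paired.

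Scaled to total reads, HU against GC gave -0.90 for Bst2, -0.62 for Ifi27l2a, -0.028 for Ifit1, -0.13 for Ifitm3, -0.56 for Irf7, -0.40 for Oasl2, -0.69 for Rsad2, -0.082 for Ptpn11 and -0.12 for Ifitm2. PBA against HU then gave 0.39 for Ifi27l2a, 0.64 for Ifit1, 0.17 for Ifit3, 0.49 for Ifitm3, 0.58 for Isg15, 0.40 for Oasl2, 0.30 for Rsad2, 0.33 for Ptpn11, 0.27 for Ifitm2, 0.15 for Tap2, 0.30 for Ifit2 and 0.48 for Ifit3b, and PBA against GC gave -0.0054 for Oasl2. With the mitochondrial covariate, HU against GC gave -1.44 for Ifi27l2a, -0.48 for Ifit1, -1.23 for Irf7 and -0.55 for Oasl2. PBA against HU gave 1.13 for Ifi27l2a, 1.03 for Ifit1, 0.20 for Ifitm3, 0.049 for Isg15, 0.54 for Oasl2, 0.37 for Ifit2 and 0.29 for Ifit3b, and PBA against GC -0.0074 for Oasl2.

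Scaled to reads outside the mitochondrial genome, PBA against HU gave -0.078 for Bst2 and -0.0040 for Irf7. By limma-voom, HU against GC gave -0.086 for Bst2, PBA against HU -0.044 for Irf7 and 0.88 for Isg15, and PBA against GC -0.13 for Oasl2. With library weights the values were 0.75 (Isg15, HU against GC), -0.10 (Irf7, PBA against HU), and in PBA against GC 0.12 for Ifi27l2a, 0.50 for Isg15, -0.18 for Oasl2 and 0.16 for Rsad2. Without PBA3 and GC3 together they were 0.16 for Isg15 in HU against GC and 0.16 in PBA against GC, -0.50 for Irf7 in PBA against HU and -0.11 for Oasl2 in PBA against GC. Isg15 gave 0.66 in PBA against HU with a pseudocount of 0.1 and 0.11 in HU against GC with a pseudocount of 4.

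With each library left out in turn, HU against GC ran from -0.27 to 0.54 for Bst2, -0.42 to 1.29 for Ifi27l2a, -0.85 to 0.97 for Isg15 and -0.028 to 0.25 for Rsad2. PBA against HU ran from -0.38 to 0.43 for Bst2, -1.79 to 0.44 for Ifi27l2a, -0.79 to 0.23 for Ifit1, -0.50 to 0.43 for Irf7, -1.26 to 0.56 for Isg15, -0.56 to 0.014 for Oasl2 and -0.52 to 0.16 for Ifit3b. PBA against GC ran from -1.39 to 0.83 for Ifi27l2a, -0.20 to 0.81 for Irf7, -0.66 to 0.00021 for Isg15 and -0.27 to 0.29 for Oasl2.

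The count of members called in HU against GC (1) was 0 with no filter, scaled to total reads or with the covariate, 2 with library weights, and 0 to 1 with a library left out. Genes called over the table in HU against GC (1292) numbered 238 with no filter, 801 with the stricter filter, 2339 scaled to total reads, 99 with the covariate, 3983 with library weights and 69 to 2360 with a library left out. For PBA against HU (340) they numbered 145 with a pseudocount of 0.1, 17 with no filter, 83 with the stricter filter, 722 scaled to total reads, 121 with the covariate, 2045 with library weights, 1118 without PBA3 and GC3, 17 with only the 6 libraries compared and 36 to 1320 with a library left out. The wider list in HU against GC (8) had 1 with no filter, 4 with the stricter filter, 13 scaled to total reads, 0 with the covariate, 22 with library weights and 0 to 17 with a library left out. In PBA against HU (2) it had 0 with a pseudocount of 0.1, 1 with a pseudocount of 4, 0 with no filter, 1 with the stricter filter, 1 scaled to reads outside the mitochondrial genome, 0 with the covariate, 8 with library weights, 4 without PBA3 and GC3, 0 with only 6 libraries and 0 to 7 with a library left out. With the replicate block the counts were 137 genes in PBA against HU, and 2 and 0 of the wider list in HU against GC and PBA against HU, Ifit3 kept its call (limma adjusted p = 0.0472), and Ptpn11 in HU against GC (0.0779) and Ifitm1 in PBA against HU (0.0633) were among those lost. Depth limits Isg15 most, with 0 to 111 reads per library, against 81 to 594 for Ifit3.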
